A study of Homo sapiens with 6 samples.

Results

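Accessible chromatin was described at 4 genes that encode zinc-finger repressors of blood cell development, GFI1B, GFI1, IKZF1 and IKZF2. The members were all sites of the deposited count table that overlapped the gene body of any of these genes extended by 50000 bases on each side. There were 65 such sites of 181135 in the table, 23 at GFI1B, 9 at GFI1, 31 at IKZF1 and 2 at IKZF2. All 65 passed the filter on low counts.

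The cells were K562, a wild-type human leukaemia line, kept in RPMI with serum. They received phorbol 12-myristate 13-acetate (PMA), an activator of protein kinase C used to drive the line towards the megakaryocyte fate, at 25 nM for 0, 6 or 72 h, and the medium of treated cells was renewed along the way. Each time had 2 libraries made by Omni-ATAC, in which a transposase cuts accessible DNA in permeabilised nuclei. The labels do not say whether the 2 libraries of a time came from separate cultures, so the p-values measure only the spread between these libraries. K562 is 1 established line, with an altered karyotype, and copy number was not measured here, so a level is compared across time and not between loci.

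GFI1 and GFI1B are related proteins with a SNAG domain at one end, which recruits the demethylase KDM1A and its CoREST partners, and zinc fingers at the other, which bind DNA with an AATC core. GFI1B is required for red cell and platelet formation, and GFI1 acts in granulocytes, lymphocytes and stem cells. IKZF1 (IKAROS) and IKZF2 (HELIOS) bind TGGGAA-like sequences, pair through a separate set of zinc fingers, and work with the NuRD, SIN3 and CTBP corepressors, mainly in lymphoid cells. IKAROS is also expressed in early blood progenitors.

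The starts whose sites fell furthest among the members, together with that of IKZF2, are printed here as the 250 bases before each annotated start on its own strand, from the RefSeq promoter table for GRCh38.p14. Capitals mark matches to the motifs searched, on either strand. The first is the downstream GFI1B start (chr9:132978444-132978693, plus strand), the second the first listed IKZF1 start (chr7:50304466-50304715, plus strand), and the third the outer IKZF2 start (chr2:213152457-213152706, minus strand).
GFI1B downstream start: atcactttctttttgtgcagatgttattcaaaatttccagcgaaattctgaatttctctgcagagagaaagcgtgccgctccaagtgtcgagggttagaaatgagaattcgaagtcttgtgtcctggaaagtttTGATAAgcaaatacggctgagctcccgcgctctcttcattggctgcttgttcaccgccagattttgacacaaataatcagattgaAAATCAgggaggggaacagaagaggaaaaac
IKZF1 first start: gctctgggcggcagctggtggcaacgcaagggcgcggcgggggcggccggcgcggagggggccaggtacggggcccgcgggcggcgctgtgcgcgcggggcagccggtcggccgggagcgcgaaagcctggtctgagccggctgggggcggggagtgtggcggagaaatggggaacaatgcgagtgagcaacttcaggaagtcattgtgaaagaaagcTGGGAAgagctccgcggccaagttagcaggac
IKZF2 outer start: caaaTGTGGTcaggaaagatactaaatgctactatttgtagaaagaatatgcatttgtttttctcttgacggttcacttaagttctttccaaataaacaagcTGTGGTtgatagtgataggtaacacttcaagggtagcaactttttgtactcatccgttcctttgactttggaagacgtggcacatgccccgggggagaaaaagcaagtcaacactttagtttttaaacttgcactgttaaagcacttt

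The GC content of these stretches was 42.8% for GFI1B, 71.2% for IKZF1 and 38.0% for IKZF2. Positions below are counted from the annotated start, with the last base before it at −1. The GFI1B stretch held TGATAA, a form of the motif of GATA factors, at −116 to −111 and AAATCA, with the GFI core, at −31 to −26. TGGGAA, the IKAROS core, stood at −32 to −27 of the IKZF1 stretch. The IKZF2 stretch held TGTGGT, the RUNX core, at −246 to −241 and at −148 to −143. Of all 22198 windows of 300 bases at protein-coding starts, 5.58% held this GATA form on either strand, 10.1% the GFI letters, 22.7% the IKAROS letters and 11.3% the RUNX letters. The other GATA form searched, AGATAA, was held by 7.91% of windows. The AP-1 motif, spelled TGANTCA, was held by 6.15%. An ETS motif with the letters CGGAAG was held by 23.7%. None of these 3 matched in the 3 stretches. At member starts not printed here, AGATAA stood before the IKZF1 start at 50319048. CGGAAG stood before the GFI1 starts at 92486099 and 92483814. A match is a description of the letters and not evidence of binding.

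Levels are given as CPM, the reads of a site relative to the size of its library, with sizes scaled by TMM. Fold changes are log2 values from one edgeR quasi-likelihood fit of all tested sites, with calls made where the adjusted p was under 0.05. Total counts per library ran from 12258890, in the first 6 h library, to 35548737, in the second 72 h library. A site is a start site here when it lies within 1000 bases of an annotated start of the gene, and distal when it lies near no start of a protein-coding gene. The members held 9 start sites and 54 distal sites. The other 2 were start sites of neighbouring genes, GTF3C5 and FIGNL1. Positions of sites are given as the distance of their centre from the reference start of the gene, negative before it, and the reference starts were those at 132978694 for GFI1B, 92486925 for GFI1, 50304716 for IKZF1 and 213152456 for IKZF2.

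The GFI1B and IKZF1 loci carried many sites and the other two few. Counting the sites of the table, which joins all times, GFI1B had 15.6 per 100 kb of its window and IKZF1 15.4, against 7.90 for GFI1 and 0.79 for IKZF2. In the 2 untreated libraries the authors' peak lists held 14 and 14 peaks in the GFI1B window, 14 and 17 at IKZF1, 5 and 4 at GFI1, and 1 and 1 at IKZF2. Summed over its sites, the GFI1B locus stood at 278 and 267 CPM in the 2 libraries at 0 h, at 174 and 176 at 6 h, and at 122 and 128 at 72 h. IKZF1 went from 201 and 229 CPM through 180.1 and 185 to 117 and 119.5. The GFI1 sums were 35.0 and 36.0 CPM, then 27.4 and 31.4, then 21.8 and 18.5, and those of IKZF2 were 14.3 and 11.4, then 8.18 and 8.28, then 5.46 and 6.06. In all 4 loci both 72 h libraries were below the 0 h libraries on this scale. The sums of GFI1B and IKZF1 include starts of other genes. At 0 h the GTF3C5 start held 26.7% of the GFI1B sum, and a start site shared with the gene TSC1 held 10.1%. The GTF3C5 start went from a mean of 72.9 CPM at 0 h to 22.3 CPM at 72 h. In the IKZF1 sum the FIGNL1 start held 12.0% at 0 h. Distal sites held 54.1% of the GFI1B signal at 0 h, 67.0% at GFI1 and 70.4% at IKZF1, but 5.58% at IKZF2, which had a single weak distal site. A fall of a site in a bulk sample can come from fewer cells with the site open or from less opening per cell, and these cannot be told apart.

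Most members that changed became less accessible. At 6 h, 27 of the 65 sites were called, 7 higher and 20 lower, where 40.1% of all tested sites were called, 23.4% higher and 16.8% lower. At 72 h against 0 h, 45 were called, 9 higher and 36 lower, beside 67.4% of all sites, 38.2% higher and 29.2% lower. The median log2 change of the members was −0.24 at 6 h and −0.93 at 72 h, and that of all tested sites was 0.05 and 0.29. Of the 65, 18 were lower at both times, 4 higher at both, and 18 lower at 72 h without a call at 6 h, while 16 had no call at either time. Both comparisons use the same 0 h libraries.

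Between 6 and 72 h, 32 members were called, 5 higher and 27 lower, beside 42.9% of all tested sites, 22.1% higher and 20.9% lower. That count depended on single libraries. It was 19 without the second 6 h library, 17 without the first 72 h library and 14 without the second 72 h library.

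The split into higher and lower depended on the scaling between libraries, because TMM, size factors, totals and the other choices place the middle of the table differently. At 72 h against 0 h the members split 9 higher to 36 lower with TMM, 8 to 38 with DESeq2 size factors (RLE), 8 to 38 with offsets fitted to site strength (loess), 17 to 29 with total counts, and 22 to 17 with TMM factors from only the sites that have a peak in every library. Under the last of these, the median of all tested sites at 72 h was 1.26. Relative to the median of all sites, the members' median at 72 h was −1.22 with TMM, −1.22 with RLE, −1.22 with totals, −0.84 with loess offsets and −1.22 with the shared peaks. TMM, RLE, totals and the shared peaks each apply a common factor per library, which moves all sites nearly alike. Their agreement was therefore fixed in advance, and only the loess offsets could give another difference. At 6 h the shared-peak scaling gave 13 higher and 11 lower, and for 72 h against 6 h it gave 14 higher and 5 lower, where totals gave 9 and 15. Called alike under all 5 scalings were 6 higher and 11 lower members at 6 h, and 7 higher and 17 lower at 72 h.

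On the TMM scale, start sites fell across the whole genome over this time course, and the members have to be read beside that. Over the 13933 tested sites at protein-coding starts, the median log2 change was −0.38 at 6 h and −1.23 at 72 h, with 39.9% called lower at 6 h and 75.7% at 72 h. The size of this fall follows the scaling, since the median of all tested sites at 72 h was 0.29 with TMM and 1.26 with the shared peaks. The median of the gene starts under the other scalings was not analysed here. Of the 9 member start sites, 2 were lower at 6 h and 7 at 72 h, and 1 was higher at 72 h. With shared-peak scaling the 72 h split was 2 higher and 3 lower, and 3 were lower under all 5 scalings. The order of the changes among all start sites does not move with a common scaling factor. By that order, the downstream GFI1B start stood near the lower end at both times and the first IKZF1 start at 72 h.

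**Figure D1:**
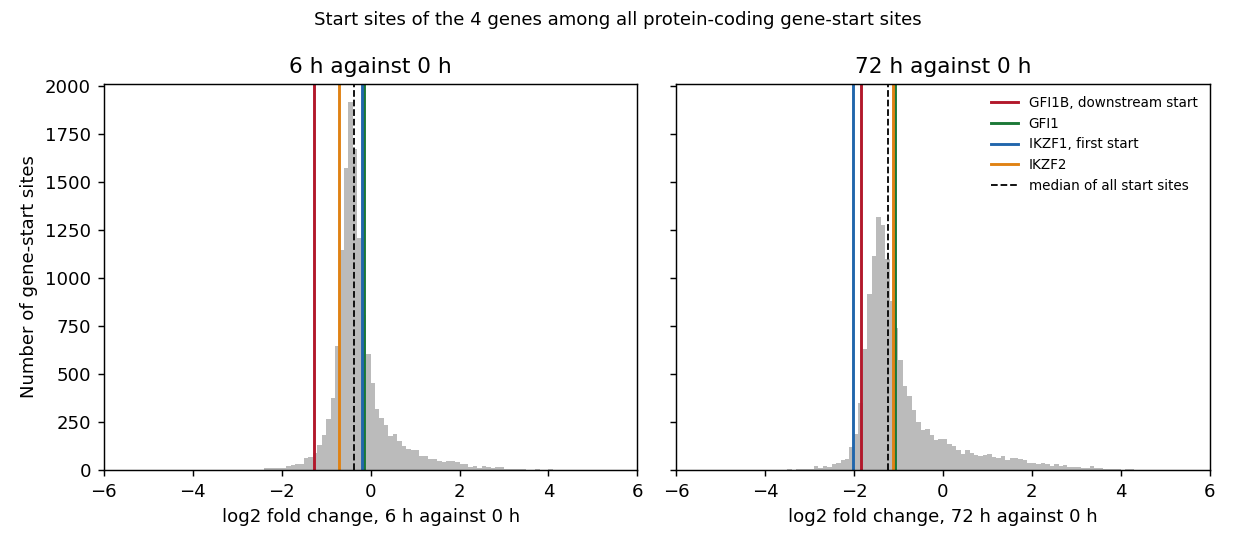
Histograms of the log2 fold change of the 13933 start sites of protein-coding genes at 6 h (left) and 72 h (right) against 0 h, with the number of sites on the y axis; coloured lines mark 1 start site of each of the 4 genes and the dashed line the median. The GFI1B downstream start lies far left at both times (−1.27 and −1.84), whereas the IKZF1 first start lies right of the median at 6 h (−0.20) and far left at 72 h (−2.01).

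The downstream start of GFI1B closed early. This site (chr9:132978448-132979048, 601 bases, covering the start printed above) held 12.6 and 11.3 CPM at 0 h, 6.14 and 4.08 CPM at 6 h, and 3.21 and 3.47 CPM at 72 h. All treated libraries lay below both untreated ones. Its log2 change was −1.27 (SE 0.25, adjusted p = 0.0003) at 6 h and −1.84 (SE 0.24, adjusted p = 9.3e-07) at 72 h, and it was called lower under all 5 scalings at both times. Of all gene-start sites, 2.44% had a lower change at 6 h and 5.76% at 72 h.

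The other start sites of GFI1B followed other courses. A site just before the downstream start, at −0.8 kb, held 12.4 and 11.1 CPM at 0 h, 10.1 and 9.83 CPM at 6 h, and 5.82 and 6.48 CPM at 72 h. Its 6 h libraries stood just under the untreated ones and it fell at 72 h, by 0.93 on the log2 scale (adjusted p = 0.00047), with 67.2% of gene-start sites lower. It was called under 3 of 5 scalings, and under the one to shared peaks its 72 h value was 0.04. The site before the upstream GFI1B start, at −34.0 kb, is also the start site of TSC1, a tumour suppressor gene that runs the other way, and the 2 cannot be told apart. It held 32.0 and 23.03 CPM at 0 h, 22.3 and 19.8 CPM at 6 h, and 10.4 and 9.05 CPM at 72 h, a change of −0.39 (adjusted p = 0.1) and then −1.49 (adjusted p = 5e-07). Without the second 0 h library the 6 h change was −0.61 (adjusted p = 0.02).

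Inside the gene beyond that upstream start, a weak site lay at −32.1 kb. It held 0.13 and 0.287 CPM at 0 h, or 2 and 6 reads, 0.17 and 0.537 CPM at 6 h, and 0.931 and 0.873 CPM at 72 h. The log2 change at 72 h was 2.03 (SE 0.63, adjusted p = 0.0074), which became 1.63 (adjusted p = 0.056) without the first 0 h library and 2.75 without the second. The call was also lost with loess offsets (1.45, adjusted p = 0.055) and by DESeq2 (1.89, adjusted p = 0.078). The site at 0.7 kb held 0.650 to 0.956 CPM at 0 h and 1.37 to 1.604 CPM at 72 h, and it was not called at either time.

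IKZF1 closed late. Its first start (chr7:50303969-50305038, 1070 bases) was the strongest site of its locus at 0 h, with 30.4 and 33.0 CPM at 0 h, 31.6 and 24.1 CPM at 6 h, and 8.64 and 7.10 CPM at 72 h. The 6 h libraries overlapped the untreated ones, and the 72 h libraries lay far below both. The log2 change was −0.20 (SE 0.18, adjusted p = 0.39) at 6 h, −2.01 (SE 0.18, adjusted p = 6.2e-09) at 72 h, and −1.81 (SE 0.18, adjusted p = 3.6e-07) from 6 to 72 h. Both later changes were called under all 5 scalings. Of all gene-start sites, 68.6% had a lower change at 6 h, but 2.89% at 72 h and 0.912% between 6 and 72 h. The second start, at 4.2 kb, held 6.30 and 5.69 CPM at 0 h, 3.41 and 5.38 CPM at 6 h, and 2.95 and 2.31 CPM at 72 h, and fell by 1.19 (adjusted p = 0.00067) at 72 h, near the middle of all starts (53.5% lower).

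At 72 h the GFI1 and IKZF2 starts had changes close to the median of all gene starts. The GFI1 start site (chr1:92484791-92486523, 1733 bases) covers the second of the 3 listed starts and held 9.29 and 14.1 CPM at 0 h, 11.2 and 10.1 CPM at 6 h, and 5.90 and 5.26 CPM at 72 h. The 6 h libraries sat between the untreated ones. Its change was −0.16 (adjusted p = 0.61) at 6 h and −1.08 (adjusted p = 0.00026) at 72 h, with 60.3% of starts lower at 72 h, and it was lower under 4 of the 5 scalings.

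The IKZF2 start site (chr2:213151357-213152577, 1221 bases) held 13.6 and 10.7 CPM at 0 h, 7.24 and 7.46 CPM at 6 h, and 5.25 and 5.78 CPM at 72 h. Its 6 h libraries did not overlap the untreated ones. The change was −0.71 (SE 0.22, adjusted p = 0.014) at 6 h and −1.13 (SE 0.22, adjusted p = 0.00011) at 72 h. It ranked low at 6 h, with 13.7% of starts lower, and in the middle at 72 h, with 57.3% lower. The 6 h call was lost without the first 0 h library (−0.59, adjusted p = 0.066). With shared-peak scaling the changes were −0.42 and −0.17, with neither called, and both were called under the other 4 scalings. Whether the 6 h changes of 2 start sites differ from each other was not tested.

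**Figure D2:**
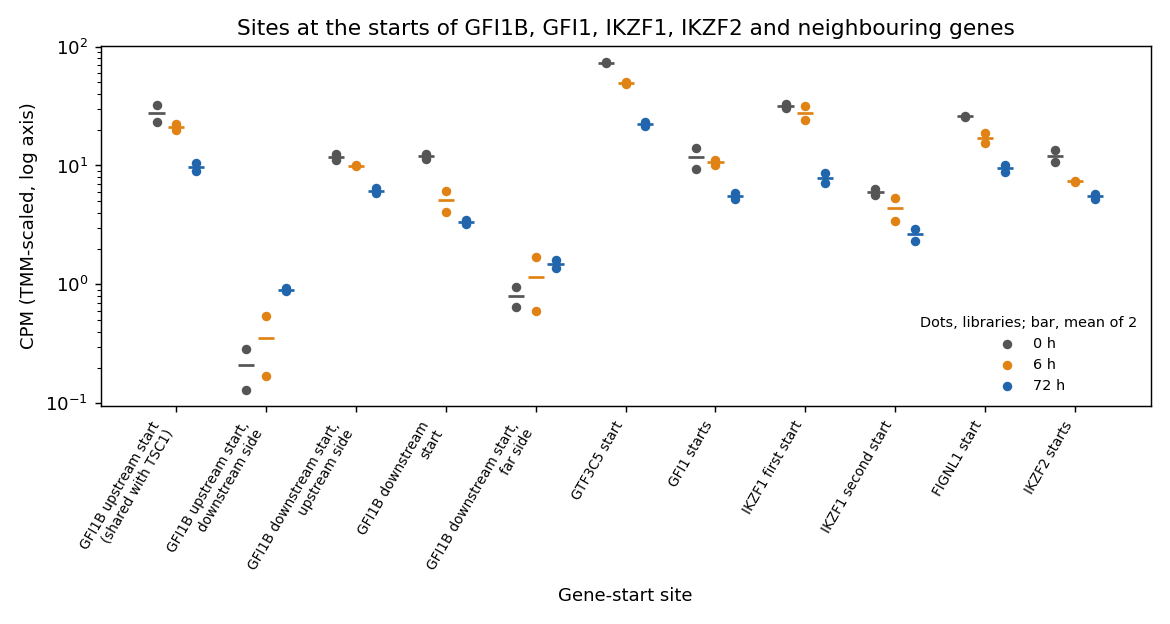
CPM at the start sites of the 4 genes at 0, 6 and 72 h of PMA, on a log axis, with the starts of the neighbouring genes GTF3C5 and FIGNL1; dots are libraries and short bars the mean of 2. GFI1B downstream (12.6 and 11.3 CPM to 6.14 and 4.08) and IKZF2 drop by 6 h, whereas the IKZF1 first start drops only between 6 h (31.6 and 24.1) and 72 h (8.64 and 7.10).

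Calls away from gene starts had a background of their own: of the 162990 tested sites on the chromosomes that are no start sites, 24.8% were higher and 14.8% lower at 6 h, and 40.8% higher and 25.2% lower at 72 h. The distal sites of GFI1B had most of their lower calls on the downstream side, with a few opening among them. Of 8 distal sites beyond the gene, the calls at 6 h were 6 lower and 1 higher, and those at 72 h were 6 lower and 2 higher. Of 4 before the gene, all within TSC1, 1 was higher at 6 h and 3 at 72 h, and none was lower. Of 5 inside the gene, 1 was lower at 6 h and 2 at 72 h. All 17 together split 5 higher to 8 lower at 72 h with TMM, 6 to 6 with total counts and 6 to 4 with shared peaks. Called alike under all 5 scalings, of the 17 distal sites, were 2 higher and 3 lower at 6 h and 4 higher and 4 lower at 72 h. The difference between the sides was not tested.

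The site in the gene at 6.0 kb (chr9:132984109-132985279) lost most of its signal by 6 h. It held 25.6 and 27.5 CPM at 0 h, 7.33 and 8.38 CPM at 6 h, and 7.94 and 6.77 CPM at 72 h. The treated libraries of both times overlapped each other and lay far below the untreated ones, with changes of −1.75 (SE 0.20, adjusted p = 3.3e-07) and −1.85 (SE 0.19, adjusted p = 3.1e-08). The change from 6 to 72 h was −0.11 (adjusted p = 0.68), and 0.57 under the scaling to shared peaks.

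A second early loss lay beyond the gene, at 20.6 kb (chr9:132998978-132999606), which went from 13.5 and 13.4 CPM to 3.75 and 4.68 CPM and then to 3.62 and 3.61 CPM, changes of −1.65 (SE 0.23) and −1.89 (SE 0.23). The site at 25.6 kb (chr9:133003892-133004763) fell in 2 steps, from 34.2 and 32.1 CPM to 14.1 and 14.7 CPM and then 8.77 and 10.8 CPM, or by 1.20 (SE 0.18) at 6 h and 1.76 (SE 0.18) at 72 h. These falls held under all 5 scalings. The second step did not: it was −0.56 with TMM, 0.07 with loess offsets and 0.11 with shared peaks, and without the second 6 h or the first 72 h library it was −0.47 (adjusted p = 0.12) and −0.37 (adjusted p = 0.25).

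The strongest distal site over all libraries, at 16.0 kb (chr9:132994279-132995094), fell less. It held 32.9 and 32.1 CPM at 0 h, 21.2 and 21.0 CPM at 6 h, and 14.0 and 16.1 CPM at 72 h, changes of −0.62 (SE 0.16) and −1.11 (SE 0.16). With loess offsets its 72 h change was −0.20 and with shared peaks −0.14, neither called. At 36.2 kb a weak site went from 2.66 and 2.68 CPM through 1.02 and 1.39 CPM to 0.543 and 0.472 CPM. This site was called lower under 3 of 5 scalings at 6 h and under all 5 at 72 h. It fell by 2.39 at 72 h (SE 0.39, adjusted p = 1.7e-05), and its 6 h change of −1.09 lost its call without the second 0 h library (−1.09, adjusted p = 0.079) or the first 6 h library (−0.94, adjusted p = 0.092).

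Between these falling sites, 2 moved otherwise. At 23.1 kb (chr9:133001574-133002101) the libraries held 1.56 and 2.44 CPM at 0 h, 6.73 and 6.77 CPM at 6 h, and 4.89 and 6.25 CPM at 72 h. All treated libraries were above both untreated ones, with changes of 1.73 (SE 0.29, adjusted p = 5.7e-05) and 1.45 (SE 0.28, adjusted p = 0.00012), called under all 5 scalings. It lies between the falling sites at 20.6 and 25.6 kb. Its neighbour at 24.4 kb (chr9:133002657-133003481) dipped and then rose, from 6.50 and 6.45 CPM to 3.58 and 4.46 CPM and then 10.2 and 12.0 CPM. Each time formed its own level with no overlap. The rise from 6 to 72 h was 1.44 (SE 0.23, adjusted p = 4.4e-05) and was called under all 5 scalings. The dip was −0.66 (adjusted p = 0.034), called under 3 of 5, and it lost its call without the second 0 h library (−0.66, adjusted p = 0.078) or the first 6 h library (−0.54, adjusted p = 0.14). The net rise of 0.78 at 72 h (adjusted p = 0.0042) became 0.65 (adjusted p = 0.081) without the second 72 h library.

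The largest gain at 72 h in the GFI1B window lay at −68.1 kb, within TSC1 (chr9:132910242-132910936), and it may belong to either gene or to neither. It held 0.325 and 0.621 CPM at 0 h, or 5 and 13 reads, 2.47 and 3.70 CPM at 6 h, and 3.93 and 5.05 CPM at 72 h. The changes were 2.69 (SE 0.41, adjusted p = 2.2e-05) and 3.18 (SE 0.39, adjusted p = 4.3e-07), and without the second 0 h library 3.29 and 3.77. Near the downstream end of the window, the start of GTF3C5, a subunit of a polymerase III factor, held 73.7 and 72.1 CPM at 0 h and 23.1 and 21.6 CPM at 72 h, a change of −1.71 (SE 0.14) with 11.2% of all starts lower.

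**Figure D3:**
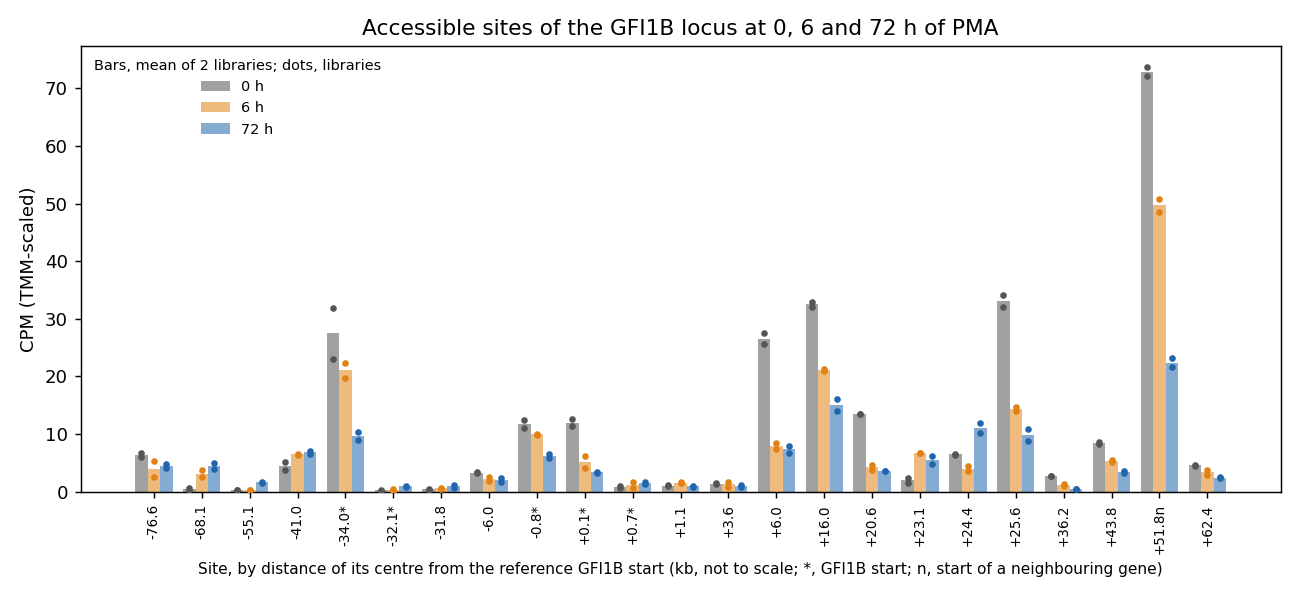
Mean CPM of the 23 sites of the GFI1B window in genomic order (x axis, distance from the downstream start in kb, not to scale) at 0, 6 and 72 h, with a dot for each library. The bars at +6.0 (26.6 CPM at 0 h and 7.85 at 6 h), +20.6 and +25.6 drop by 6 h, while +23.1 rises and +24.4 dips and then rises.

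The IKZF1 locus held 28 distal sites. At 6 h, 5 were higher and 7 lower (17.9% and 25.0%), and at 72 h 2 were higher and 15 lower (7.14% and 53.6%). With shared-peak scaling the split was 8 higher and 5 lower at 6 h, and 10 higher and 7 lower at 72 h. Their median change was −0.03 at 6 h and −0.84 at 72 h. Inside the gene, 3 of 18 were higher and 5 lower at 6 h, and 0 were higher and 10 lower at 72 h. Under all 5 scalings alike, 4 of the 28 were higher and 5 lower at 6 h, and 2 higher and 7 lower at 72 h.

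Among the falling sites, that at 34.1 kb, within the gene (chr7:50338618-50339057), held 6.37 and 7.31 CPM at 0 h, 2.81 and 2.78 CPM at 6 h, and 1.22 and 1.27 CPM at 72 h. The 3 times did not overlap, with changes of −1.29 (SE 0.28, adjusted p = 0.00075) and −2.46 (SE 0.28, adjusted p = 1.3e-07). A weaker site at −19.1 kb (chr7:50285326-50285815) fell from 2.66 and 2.25 CPM through 0.597 and 0.917 CPM to 0.233 and 0.283 CPM, the last being 9 and 12 reads. The change at 72 h was −3.22 (SE 0.45, adjusted p = 2.4e-06). Likewise weak, the site at 28.8 kb went from 2.27 and 2.72 CPM to 0.682 and 1.14 CPM and then 0.517 and 0.424 CPM. It fell by 2.41 at 72 h (SE 0.41), and its 6 h change of −1.37 lost its call without the second 0 h library (−1.22, adjusted p = 0.068) or the first 6 h library (−1.14, adjusted p = 0.053). The 72 h falls of these 3 sites were called under all 5 scalings.

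The strongest distal site of IKZF1, at 51.6 kb (chr7:50355657-50356976), held 31.6 and 29.05 CPM at 0 h, 20.03 and 23.5 CPM at 6 h, and 14.0 and 17.6 CPM at 72 h. Per kb of site this was 22.96 CPM at 0 h, against 29.6 CPM at the first start. Its change was −0.47 (SE 0.17, adjusted p = 0.033) at 6 h and −0.94 (SE 0.17, adjusted p = 5.5e-05) at 72 h. The 6 h call was lost without the first 0 h library (−0.47, adjusted p = 0.063) or the first 6 h library (−0.37, adjusted p = 0.19). At 72 h the change was −0.03 with loess offsets and 0.03 with shared peaks.

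Some sites within IKZF1 were open most at 6 h. At 32.6 kb (chr7:50337087-50337621) the libraries held 2.47 and 3.25 CPM at 0 h, 6.39 and 8.38 CPM at 6 h, and 2.51 and 3.49 CPM at 72 h. Both 6 h libraries were above all others, and the 72 h libraries overlapped the untreated ones. It rose by 1.38 at 6 h (SE 0.28, adjusted p = 0.00053) and then changed by −1.32 (SE 0.27, adjusted p = 0.00044), and both steps were called under all 5 scalings. Against 0 h the 72 h value was 0.06 with TMM (SE 0.29, adjusted p = 0.86) but 1.03 with shared peaks, and it was called higher under 1 of 5 scalings. The site at 27.2 kb held 0.585 and 0.812 CPM at 0 h, 2.39 and 2.12 CPM at 6 h, and 1.32 and 1.04 CPM at 72 h. Its rise at 6 h was 1.65 (SE 0.43, adjusted p = 0.0038), and the 72 h value of 0.73 was not called with TMM (adjusted p = 0.14). Against 0 h that value was called higher under 2 of 5 scalings, and it was 1.23 with total counts and 1.69 with shared peaks. The later change of −0.92 (adjusted p = 0.048) was called under 3 of 5 scalings and lost its call without either 6 h library (adjusted p = 0.11 and 0.13) or either 72 h library (0.14 and 0.33), with values from −0.70 to −1.06. Of the 28 distal sites 3 were higher at 6 h and lower again from 6 to 72 h; the third lay at 46.0 kb and was named after its values were seen. It held 6.08 CPM (SD 0.597) at 0 h, 9.498 CPM (SD 1.502) at 6 h and 4.88 CPM (SD 0.205) at 72 h, n = 2 each. The site was called higher at 6 h under 3 of 5 scalings, and lower from 6 to 72 h under 4. Its rise at 6 h was 0.66 (adjusted p = 0.029), which was not called without the first 0 h library (0.50, adjusted p = 0.15), the second 6 h library (0.41, adjusted p = 0.31) or either 72 h library (0.60, adjusted p = 0.082). The later fall of 0.98 (adjusted p = 0.0015) became −0.74 (adjusted p = 0.054) without the second 6 h library.

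The opposite course was seen at 1 distal site of IKZF1, at 55.5 kb, also named after its values were seen. It held 10.7 and 15.9 CPM at 0 h, 6.22 and 7.21 CPM at 6 h, and 12.7 and 13.0 CPM at 72 h. The 6 h libraries were the lowest, and the 72 h libraries lay within the untreated range. The change was −0.97 (SE 0.22, adjusted p = 0.0014) at 6 h and 0.92 (SE 0.22, adjusted p = 0.0017) from 6 to 72 h, both called under all 5 scalings.

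Lasting gains at IKZF1 were few. At −37.6 kb (chr7:50266760-50267397) the libraries held 5.00 and 7.60 CPM at 0 h, 9.12 and 14.1 CPM at 6 h, and 11.3 and 10.1 CPM at 72 h. The changes were 0.89 (SE 0.25, adjusted p = 0.0061) and 0.75 (SE 0.24, adjusted p = 0.0093). Without the first 0 h library they were 0.58 (adjusted p = 0.09) and 0.48 (adjusted p = 0.11), without the second 6 h library the former was 0.46 (adjusted p = 0.26), and without the first 72 h library the latter was 0.67 (adjusted p = 0.078).

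The largest gain of all members at 72 h lay at 142.0 kb, past the end of IKZF1 and inside FIGNL1, a gene for a DNA repair ATPase (chr7:50446410-50447118). It held 0.650 and 0.669 CPM at 0 h, or 10 and 14 reads, 1.79 and 2.34 CPM at 6 h, and 7.01 and 9.03 CPM at 72 h. Each time lay above the one before without overlap, with changes of 1.68 (SE 0.38, adjusted p = 0.0012) at 6 h, 3.59 (SE 0.33, adjusted p = 9e-09) at 72 h and 1.91 (SE 0.28, adjusted p = 1.5e-05) between them, all called under all 5 scalings. The FIGNL1 start, the neighbouring site of the table, fell from 26.2 and 25.5 CPM to 18.8 and 15.5 CPM and then 8.87 and 10.0 CPM, by 1.45 at 72 h (SE 0.18), with 31.0% of all starts lower.

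**Figure D4:**
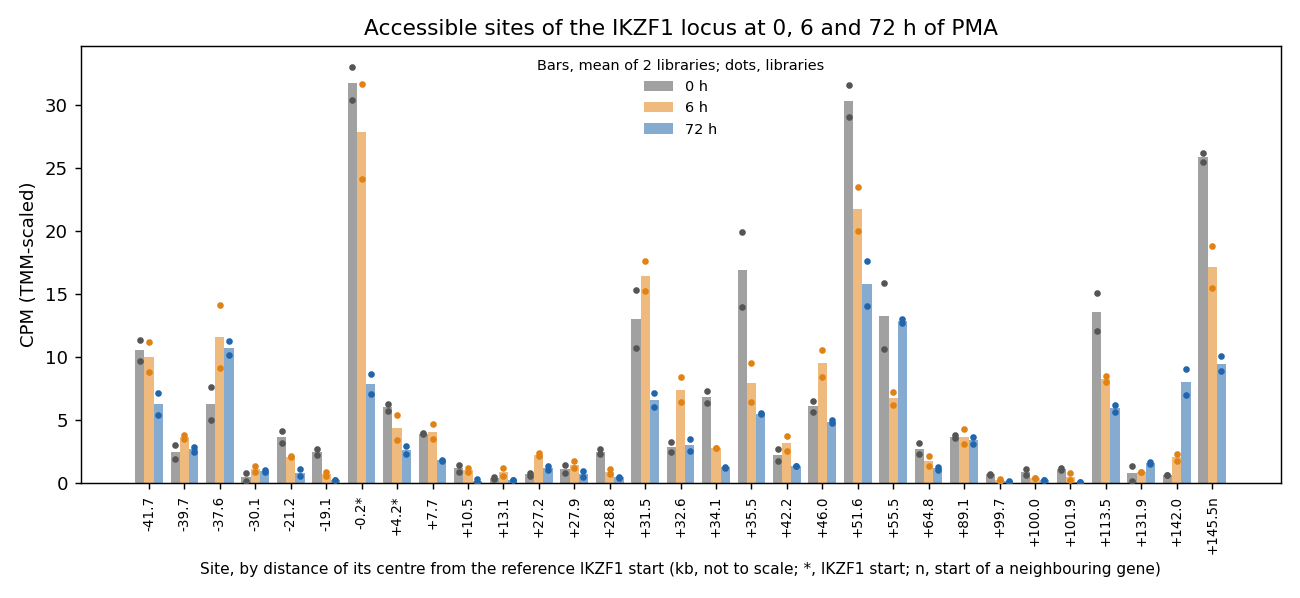
Mean CPM of the 31 sites of the IKZF1 window in genomic order (x axis, distance from the first start in kb, not to scale) at 0, 6 and 72 h, with a dot for each library. The start (31.7 CPM at 0 h, 27.9 at 6 h and 7.87 at 72 h) drops late, +32.6 peaks at 6 h, +55.5 is lowest at 6 h, and +142.0 rises at each step.

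GFI1 had 8 distal sites, of which 2 were lower at 6 h. By 72 h there were 3 lower (37.5%) and a single higher one (12.5%). That split was 4 higher to 3 lower with total counts and 4 to 1 with shared peaks. The strongest, at 40.0 kb past the outer start and beyond the gene (chr1:92446365-92447515), held 16.0 and 12.5 CPM at 0 h, 10.1 and 13.6 CPM at 6 h, and 6.88 and 5.66 CPM at 72 h. The 6 h libraries overlapped the untreated ones (−0.24, adjusted p = 0.39) and the 72 h libraries did not (−1.18, SE 0.22, adjusted p = 6.3e-05). The site at 26.8 kb (chr1:92459772-92460412) fell early, from 3.18 and 4.16 CPM to 0.767 and 1.30 CPM, and then held 1.27 and 1.20 CPM, changes of −1.74 (SE 0.37, adjusted p = 0.00069) and −1.58 (SE 0.34, adjusted p = 0.00033). Inside the gene, at 12.6 kb (chr1:92474010-92474648), a weak site held 0.585 and 0.239 CPM at 0 h, 1.11 and 0.917 CPM at 6 h, and 1.71 and 1.56 CPM at 72 h. It rose by 2.04 at 72 h (SE 0.49, adjusted p = 0.00098), or 2.74 without the first 0 h library. Its 6 h value was 1.32 (adjusted p = 0.056), or 1.97 (adjusted p = 0.029) without that library. The 72 h gain was called under all 5 scalings and the 6 h one under 2. At 72 h the falls at 40.0 and 26.8 kb were called under 4 of 5, and were −0.21 and −0.61 with shared peaks. A weaker site at −29.8 kb, below the CPM limit of the naming rule, was named after its values were seen. It held 2.79 and 1.24 CPM at 0 h and 0.336 and 0.142 CPM at 72 h. Its changes of −2.36 at 6 h and −3.04 at 72 h were called under all 5 scalings.

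IKZF2 had 1 distal site, at −1.5 kb, with 0.715 and 0.717 CPM at 0 h, 0.937 and 0.822 CPM at 6 h, and 0.207 and 0.283 CPM at 72 h. It fell by 1.52 at 72 h (SE 0.56, adjusted p = 0.02), on 8 and 12 reads, and did not hold that call without either 0 h library (adjusted p = 0.05 and 0.073) or either 72 h library (0.13 and 0.064). Without these libraries the change ran from −1.33 to −1.77. The gene body of IKZF2, 152759 bases long, held no other site of the table.

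**Figure D5:**
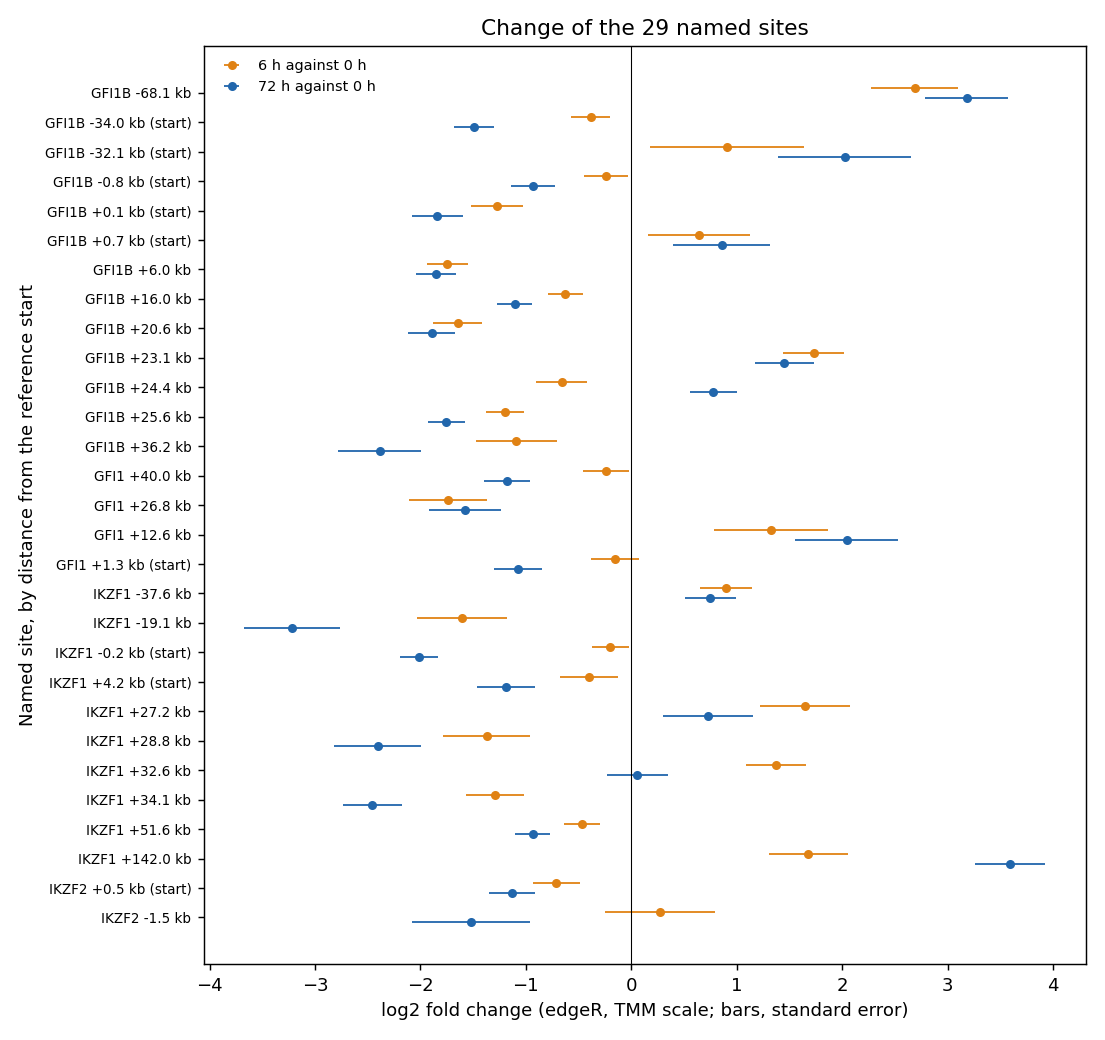
Log2 fold change with its standard error at 6 h and 72 h against 0 h for the 29 sites of the 4 loci taken by the naming rule. Most points lie left of 0, and the gains include GFI1B −68.1 kb (2.69 and 3.18), GFI1B +23.1 kb (1.73 and 1.45) and IKZF1 +142.0 kb (1.68 and 3.59).

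The partners of these repressors were read at their own starts, in a list of 24 genes for the other IKAROS family members and the corepressors. A start site was tested for 22, and IKZF3 and SIN3B were not analysed here. On the TMM scale, 19 of the 22 were lower and 0 higher at 6 h, and all 22 were lower at 72 h. The partner starts were not analysed under the other scalings. The median of all tested sites at 72 h was 0.29 with TMM and 1.26 with the shared peaks, so calls of the smaller falls may follow the scaling. The medians were −0.59 and −1.55, against −0.38 and −1.23 over all gene starts, where 39.9% and 75.7% of all starts were called lower. The sets are unlike, because each partner was read at the strongest start site of its gene, with a median of 57.2 CPM at 0 h. All gene starts include weak sites and several sites of a gene. Whether the difference follows from this choice was not tested. KDM1A, the demethylase bound by the SNAG domain, held 50.5 CPM in untreated cells, 32.3 at 6 h and 18.5 at 72 h, a change of −0.65 and −1.45. RCOR1, the CoREST scaffold, changed by −0.74 and −1.87. In the NuRD and SIN3 group, RBBP7, a histone-binding subunit, had the largest fall at 72 h (−2.18), and MTA3 the smallest (−0.93). IKZF4, another IKAROS family gene, fell by 1.11 at 6 h and stood at −1.06 at 72 h.

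The erythroid identity of the line was checked at gene starts. Of the erythroid markers, 3 were read at a start site, GATA1, TAL1 and EPOR, with 13.1, 56.7 and 44.9 CPM at 0 h. All 3 fell at both times on the TMM scale, and the other scalings were not analysed at the marker starts. Of 6 markers of other blood cells, CD79A alone had a start site, with 8.51 CPM at 0 h and no call at 6 or 72 h. GATA1 stood at 3.21 CPM at 6 h and 4.94 CPM at 72 h (−1.99 and −1.41), and its part in the fall of the members was not tested.

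Likeness of course was measured across 11459 genes as the root mean squared difference of log2(CPM + 0.5), centred over the 6 libraries. Closest to the strongest GFI1B start site, the one shared with TSC1, were GRSF1 (0.0386), TMUB2 (0.0434) and CSNK2A2 (0.0462), where the median gene differed by 0.265. For GFI1 they were NINJ2 (0.0557), MTMR6 (0.0559) and SLC35D2 (0.0665), and for IKZF2 IL10RB (0.0286), MARCHF2 (0.0441) and ZNF626 (0.0455). The IKZF1 start was closest to a site shared by MYL3 and PTH1R (0.0534), which went from 8.42 to 7.15 and 1.71 CPM, and then to ZCCHC2 (0.123). For the downstream GFI1B start, added after its values were seen, the closest were LXN (0.0974), SLC17A2 (0.103) and COL9A1 (0.118).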

How the data were processed

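ATAC-seq of 6 K562 libraries, 2 each at 0, 6 and 72 h, was analysed. Per the submitters' processing notes, the tools used included Trim Galore 0.4.3, BWA 0.7.17, SAMtools 1.9, deepTools 3.0.1, MACS2, bedtools 2.26 and DESeq, with build hg38. Read filters and any shift of read ends are not given in the sources used here, nor is how the list of sites was made. The authors deposited raw counts per site and library, whole numbers with a different total in each library. Their table also holds the authors' log2 fold changes and adjusted p-values, which were not used for any call. In the deposited peak list of each library, which has no header, the columns follow the narrowPeak layout: a score, a fold enrichment as a ratio, and −log10 p and q. The deposited peaks were used only to mark which sites overlap a peak.

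Sites were matched to members by RefSeq gene bodies (GRCh38.p14) and to starts by the RefSeq promoter table, with every listed start used. Starts of protein-coding genes were found for 15842 genes. Of the sites, 177759 passed edgeR's filter with a minimum count of 10. Counts were fitted with edgeR 4.0.16 in R 4.3.3 (TMM scaling, quasi-likelihood test, 3 time groups in one fit), with Benjamini-Hochberg adjustment over all tested sites. The coefficient of variation between libraries was 0.166, and the fit was tested on simulated counts. The labels name no molecular identifiers, so a read number is not a number of molecules.

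Named with values were every start site, the strongest distal site of each gene, and for each comparison with 0 h up to 3 called distal sites of each gene and direction with the largest change, a mean of at least 1 CPM and no overlap between the 2 groups. For 72 h against 6 h the rule took 1 site per direction. The members, lists and rules were chosen with earlier results of these data known. The alternatives were 4 other scalings (RLE, total counts, loess offsets with a span of 0.3, and TMM factors from the 35800 sites with a peak in every library), no filter, DESeq2 1.42.0, an adjusted p under 0.01 with an absolute log2 change above 1, a replicate block, and each library left out in turn. The motif TGATAA was added after the windows were seen.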

Additional observations from a re-analysis of the deposited data

Results flagged for a closer look

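The site 24.4 kb beyond the downstream GFI1B start stood out because its 2 changes against 0 h went in opposite directions, both called, and the difference between them was itself called. It was the only one of the 65 sites with this course on the TMM scale. The 6 h dip of −0.66 was called under 3 of 5 scalings and was −0.535 without the first 6 h library. The 72 h rise of 0.78 was 0.65 without the second 72 h library. The log2 change from 6 to 72 h was 1.44 by edgeR's quasi-likelihood test, and both 72 h libraries were above both 6 h libraries. Against 0 h, the neighbouring site at 23.1 kb was higher and that at 25.6 kb lower at both times.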

How the results depend on the processing

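Without one library at a time, the number of members called ran from 23 to 27 at 6 h, from 39 to 46 at 72 h against 0 h, and from 14 to 34 for 72 h against 6 h, where a lone library was assumed to vary like the other groups. An adjusted p under 0.01 with an absolute log2 change above 1 left 14 members at 6 h and 14 for 72 h against 6 h. With TMM factors from sites that have a peak in every library, 19 were called for 72 h against 6 h. Scaling moved the median log2 change of all tested sites from 0.29 with TMM at 72 h to 0.11 with RLE, 0.79 with totals, 0.01 with loess offsets and 1.26 with the shared peaks, so calls of small changes follow the scaling.

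Over all 65 members, called or not, the sign of the change differed from that with TMM at 8 sites at 6 h, 15 at 72 h and 21 for 72 h against 6 h with the shared peaks, and at 0 to 8 sites with the other scalings. Among the named sites with a call before or after, the turned values were these. With the shared peaks, the 72 h change was 0.0362 at the GFI1B site at −0.8 kb, 0.0285 at IKZF1 51.6 kb, 0.65 at IKZF1 46.0 kb and 0.92 at IKZF1 55.5 kb. With the shared peaks, the change from 6 to 72 h was 0.57 at GFI1B 6.0 kb, 0.19 at 16.0 kb, 0.11 at 25.6 kb and 0.20 at IKZF1 51.6 kb. With loess offsets it was 0.25 at GFI1B 16.0 kb, 0.0679 at 25.6 kb and 0.26 at IKZF1 51.6 kb. The cause was not tested.

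With the replicate number as a block, 29, 46 and 33 members were called at 6 h, 72 h and 72 h against 6 h. Same-numbered libraries deviated together only weakly (correlations of 0.08, 0.05 and 0.09 over sites), and with 2 numbers the libraries share only a number. Dropping the filter and using DESeq2 left each count of members within 1.5 times. Depth limits the weak sites: 3 reads correspond to 0.256 CPM in the shallowest library, the first at 6 h, and to 0.0707 CPM in the deepest.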

Other observations

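The deposited class names did not follow the direction of the changes in the authors' deposited table. Among sites of the class named upEarly, 69.3% had an authors' 72 h log2 change above 0, and among those named downLate 71.9%. Of the 13 members with a class other than static, 11 had an authors' 72 h change below 0, including 5 of the 7 with a name that says up. The class names were therefore not used.

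Presence of a deposited peak and the CPM of a site did not always go together. The second IKZF1 start and the GFI1B site at 24.4 kb overlapped a peak in both 72 h libraries and in none of the other 4. At the former the CPM fell, from 6.30 and 5.69 at 0 h to 2.95 and 2.31 at 72 h. Its reads were 97 and 119 at 0 h and 114 and 98 in the deeper 72 h libraries, so the fall rests on the scaling. The log2 change was −1.19 with TMM and −0.22 with shared peaks, and it was called lower under 4 of 5 scalings. Peak lists were longer at 72 h, with 138914 and 142305 peaks against 61873 and 69152 at 0 h. Of the 65 members, 6 overlapped no deposited peak of any library. All 65 were in the table with reads.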
